A study of Mus musculus with 12 samples.

Results

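Glycine receptors, glycine transporters and their synaptic anchor were followed through RNA from punches of mouse brain, as 7 genes chosen by name from the 54429 entries of the series count table. The genes are Glra1, Glra2 and Glra3, which encode alpha subunits of the glycine receptor, Glrb, which encodes its beta subunit, Slc6a5 and Slc6a9, which encode the glycine transporters GlyT2 and GlyT1, and Gphn, which encodes gephyrin. All 7 were present in the table. The study sequenced 12 libraries of total RNA from C57BL/6 mice, 3 in each of 4 groups: BLA from male mice that were early social isolated, BLA from group-housed males, VTA from early social isolated females and VTA from group-housed females. Titles and treatment labels give region and group; sex is stated in the design text alone. The labels give the regions only by these letters, which commonly stand for the basolateral amygdala and the ventral tegmental area, and name the tissue as cerebrum. No source used here gives age, the length of isolation or whether the 3 libraries of a group are separate animals. A p-value below therefore reflects only how these libraries vary, and that variation may be technical. Region and sex changed together, so a difference between VTA and BLA cannot be told apart from a difference between females and males.

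Glycine is an inhibitory transmitter, best known from the spinal cord and brainstem, where it opens chloride channels built from alpha and beta subunits. The beta subunit binds gephyrin, a scaffold that holds glycine receptors and many GABA-A receptors at the synapse. GlyT2 sits on glycinergic nerve endings and refills them with glycine, whereas GlyT1, found largely on astrocytes, clears glycine from around synapses, including excitatory ones where glycine is a co-agonist of NMDA receptors. In the forebrain Glra2 and Glra3 are the better known alpha subunit genes, and Glra1 is the one most closely tied to adult brainstem and spinal cord.

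The receptor genes are related closely enough that a reader may ask whether short reads can tell them apart. Among the coding sequences of GENCODE M21 (mm10), Glra1 was 74.1% identical to Glra2 and 76.1% identical to Glra3, and Glra2 was 74.9% identical to Glra3 over aligned bases. Glrb was 62.0% to 65.5% identical to the alpha genes, and Slc6a5 was 63.7% identical to Slc6a9. The longest run of identical bases was 26 between Glra1 and Glra2, 25 between Glra1 and Glra3, and 26 between Glra2 and Glra3. No other pair compared shared more than 15. The 60 coding bases around the run that Glra1 shares with Glra2 are shown 5′ to 3′ because they hold the longest run of identical bases between that pair; capitals mark bases that differ from Glra1.
Glra1: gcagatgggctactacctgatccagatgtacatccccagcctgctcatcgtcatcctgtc
Glra2: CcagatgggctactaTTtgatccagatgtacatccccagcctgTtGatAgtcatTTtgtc
Glra3: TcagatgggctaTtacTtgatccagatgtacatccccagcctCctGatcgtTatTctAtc
Glrb: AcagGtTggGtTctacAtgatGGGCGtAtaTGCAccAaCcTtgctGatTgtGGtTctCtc
In each gene these bases lie in 1 coding exon (mm10), at chr11:55527370-55527429 on the minus strand for Glra1, chrX:165252335-165252394 on the minus strand for Glra2, chr8:56089024-56089083 on the plus strand for Glra3 and chr3:80855838-80855897 on the minus strand for Glrb. Across the window Glra2 and Glra3 each differed from Glra1 at 8 bases and Glrb at 25.

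The genes are spread over the genome. In the same annotation Glra1 spans 94.0 kb of chromosome 11 (55514238 to 55608198), Glra2 spans 198.4 kb of chromosome X (165129017 to 165327393), Glra3 spans 189.6 kb of chromosome 8 (55940460 to 56130070) and Glrb spans 70.1 kb of chromosome 3 (80843599 to 80913660). Slc6a5 lies on chromosome 7 (49910146 to 49963856), Slc6a9 on chromosome 4 (117834506 to 117875198) and Gphn on chromosome 12 (78226379 to 78684772). Slc6a9 shares 724 of its exonic bases with the span of B4galt2 on the opposite strand, and the counting's strand setting is not given in the sources used here. B4galt2 was lower in VTA than in BLA (log2 fold change -0.83, SE 0.08), the opposite direction to Slc6a9 below. Ccdc24, also antisense and overlapping 1429 exonic bases of Slc6a9, was higher in VTA (1.19, SE 0.30). Over the 12 libraries B4galt2 held 31669 counts, Ccdc24 446 and Slc6a9 30575. Gm17114, antisense over 3309 exonic bases of Slc6a9, had 0 counts. The part of these overlaps in the Slc6a9 difference was not tested.

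Libraries held 28277721 to 69270051 counts. The dopamine neuron gene Slc6a3 lay between 230.6 and 520.4 CPM in VTA libraries and at 1.09 CPM or less in BLA libraries, and the cortical and amygdalar gene Slc17a7 lay at 448.9 CPM or more in BLA libraries. In VTA, Slc17a7 stood at 232 CPM in isolated library 3 and 23.8 CPM in isolated library 1, against 2.88 to 8.18 CPM in the other 4. Of 10 dopamine neuron markers 9 were called higher in VTA and 1, Nr4a2, lower. CPM is the count scaled to a common library size, here with TMM factors over the 12 libraries. In 3 BLA libraries (isolated 3, group-housed 1 and 2) loci that collect ribosomal RNA reads took 18.6% to 41.8% of the counts, against at most 1.57% elsewhere. The 10 choroid plexus markers summed to 275.3 CPM in isolated VTA library 1 and 3476 CPM in isolated VTA library 3, against 38.54 to 60.95 CPM in the other VTA libraries. Group-housed VTA library 3 held 92.14 CPM of Tph2, the enzyme of serotonin synthesis, against at most 6.06 CPM in the others.

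The first question was how much of each transcript the regions held. Compared per kilobase of annotated exon, the order in BLA was Glrb (50.6 ± 2.52 CPM per kb, SD, n = 6), Gphn (25.1 ± 0.952), Glra2 (12.2 ± 1.36), Glra3 (5.24 ± 0.825), Slc6a9 (4.33 ± 0.738), Glra1 (0.547 ± 0.135) and Slc6a5 (0.00874 ± 0.0113). In VTA it was Glrb (61.9 ± 11.3 CPM per kb, SD, n = 6), Gphn (24.7 ± 1.92), Glra2 (15.1 ± 2.42), Slc6a9 (12.2 ± 2.28), Glra3 (7.72 ± 0.770), Glra1 (5.98 ± 2.02) and Slc6a5 (0.127 ± 0.197). By this measure the beta subunit and its anchor led in both regions and GlyT2 came last. Libraries of neighbouring genes in this order overlapped for Glra3 and Slc6a9 in BLA, and in VTA for Glra2 and Slc6a9 and for Glra3 and Glra1. In BLA, Glra3 ran from 3.92 to 6.10 CPM per kb and Slc6a9 from 3.50 to 5.45. In VTA, Slc6a9 ran from 9.24 to 15.6 CPM per kb and Glra2 from 12.3 to 18.9, while Glra1 ran from 4.31 to 8.76 and Glra3 from 6.75 to 8.87. The order also depends on the length used. Slc6a9 has 5141 bases of annotated exon but 2107 in the transcript with its longest coding sequence, against 3749 and 3300 for Gphn. By those transcript lengths Slc6a9 would lie above Gphn in VTA.

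**Figure D1:**
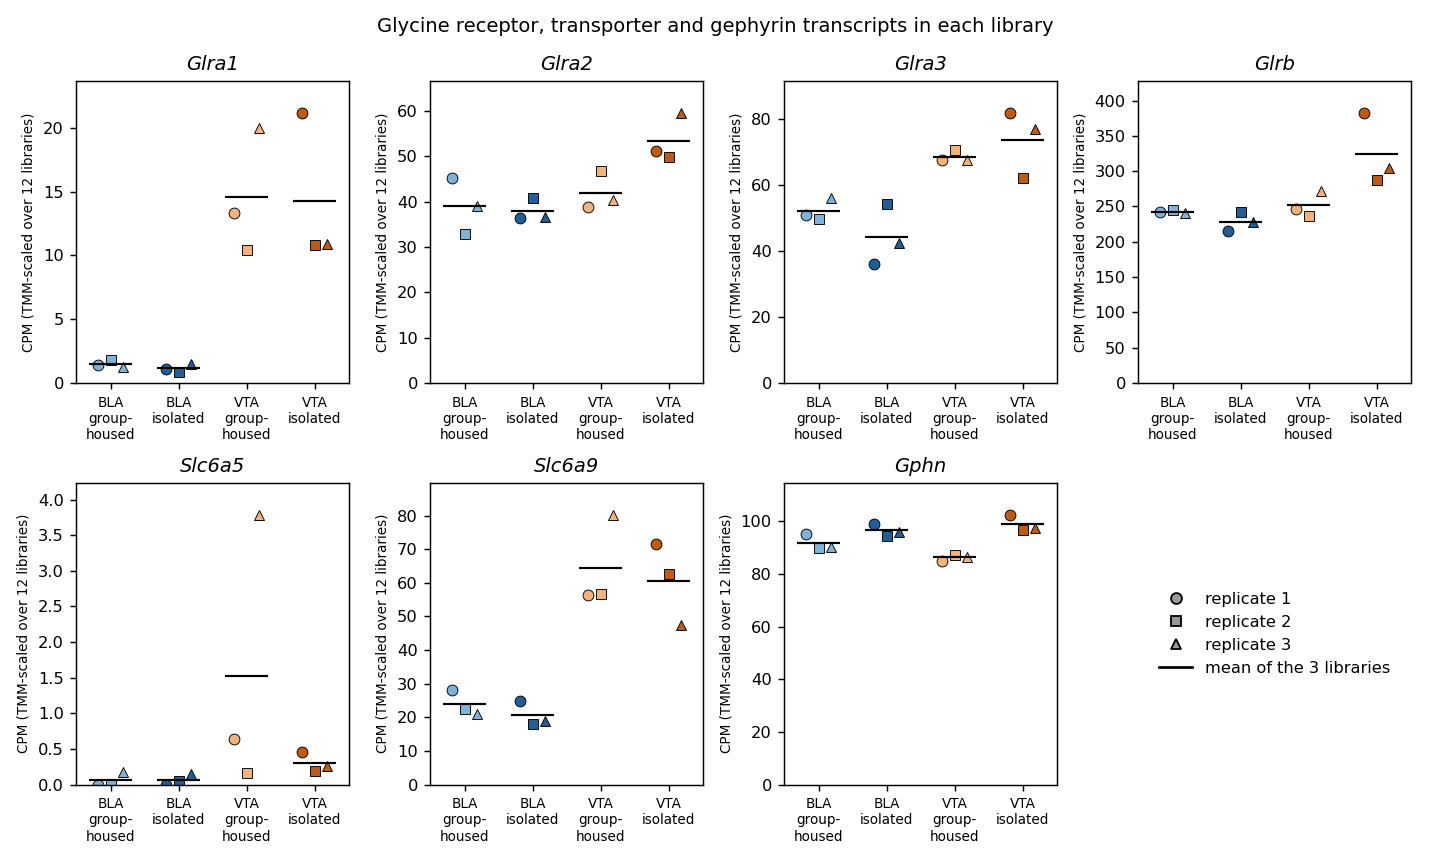
Level of each gene in each of the 12 libraries, in CPM scaled over the 12 libraries (vertical axes, each from 0), by group (horizontal axes); symbols are replicate numbers and bars are means of 3 libraries. Glra1 and Slc6a9 lie higher in all 6 VTA libraries than in any BLA library, Gphn stays between 84.86 and 102.3 CPM, and Slc6a5 reaches 3.78 CPM in group-housed VTA library 3 alone.

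The regions were then compared over all 12 libraries. Of the 7 genes, 6 were higher in VTA and 0 were lower at an adjusted p under 0.05 (edgeR quasi-likelihood F test, Benjamini-Hochberg adjustment over all genes). Of the 25009 genes tested, 24.1% were called higher and 23.7% lower, 47.7% in all, so a call in this comparison is common. At an unadjusted p under 0.05 the count was also 6 of 7, against 53.5% of all genes, and 6 of 7 had a log2 fold change above 0, against 51.5%. The groups did not overlap for 3 of the 7 genes, each higher in VTA, against 14.1% of all genes on the higher side and 27.1% in either direction. The punches are bulk tissue, so fewer cells of a type and less RNA per cell cannot be told apart.

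Glra1, the alpha subunit gene of the adult brainstem and spinal cord, had the largest fitted difference of the well-counted genes. In BLA its lowest, median and highest libraries lay at 0.897, 1.30 and 1.82 CPM, and in VTA at 10.4, 12.1 and 21.1 CPM. Every VTA library exceeded every BLA library, by a fitted 11.3-fold (log2 fold change 3.49, SE 0.24, edgeR adjusted p = 2.66e-07). Within VTA it was uneven: isolated library 1 (21.1 CPM) and group-housed library 3 (20.01 CPM) stood above the other 4, which ran from 10.4 to 13.3 CPM.

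Slc6a9, the GlyT1 gene, came next. Its BLA libraries lay at 17.99 CPM (lowest), 21.8 CPM (median) and 28.02 CPM (highest), and its VTA libraries at 47.5, 59.7 and 80.2 CPM. The groups did not overlap, and the fitted difference was 2.81-fold (log2 fold change 1.49, SE 0.14, edgeR adjusted p = 2.36e-06). Astrocyte markers, the class in which GlyT1 is best known, were called higher in VTA in 7 of 10 cases and lower in 2, with a median log2 fold change of 0.59, against 0.02 over all genes tested. Their summed level ran from 3878 to 4870 CPM in VTA libraries and from 4683 to 5107 CPM in BLA libraries, and none of them was at 0. The part of these markers in the Slc6a9 difference was not tested.

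Glra3 lay at 36.05, 50.2 and 56.2 CPM (lowest, median, highest) in BLA and at 62.2, 69.01 and 81.7 CPM in VTA. The groups did not overlap (log2 fold change 0.56, SE 0.09, edgeR adjusted p = 0.00015). Glra2, which lies on the X chromosome, differed less, at 32.8, 37.8 and 45.2 CPM in BLA and 38.8, 48.3 and 59.5 CPM in VTA. Its groups overlapped (log2 fold change 0.30, SE 0.08, edgeR adjusted p = 0.00802).

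Glrb, the beta subunit gene, was the most abundant of the receptor genes and differed by a similar amount. It lay at 215, 241.4 and 244.8 CPM (lowest, median, highest) in BLA and at 236.3, 279.9 and 381.8 CPM in VTA, with groups that overlapped (log2 fold change 0.28, SE 0.07, edgeR adjusted p = 0.00611). Neither Glrb nor Glra2 was called without the isolated libraries. Among group-housed libraries alone, the log2 fold change of VTA over BLA was 0.05 for Glrb (edgeR adjusted p = 0.656) and 0.10 for Glra2 (edgeR adjusted p = 0.559), whereas Glra1 (3.36), Slc6a9 (1.43) and Glra3 (0.39) were still called. With the 5 libraries that carried much ribosomal RNA or choroid plexus signal left out, Glra1 (3.53) and Slc6a9 (1.60) were called. The other 4 lost the call on these 7 libraries, with values of 0.39 for Glra3 (edgeR adjusted p = 0.0704), 0.25 for Glra2, 0.22 for Glrb and 2.95 for Slc6a5.

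Gphn, in contrast, lay within a narrow range. Its BLA libraries lay at 89.8, 94.9 and 98.98 CPM (lowest, median, highest) and its VTA libraries at 84.9, 91.97 and 102.3 CPM. Its log2 fold change was -0.03, with a 95% interval from -0.14 to 0.08 (edgeR adjusted p = 0.697).

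Slc6a5, the GlyT2 gene, was close to absent from the counts. BLA libraries held 0, 3 and 5 counts in the isolated group and 0, 0 and 10 in the group-housed group, 18 in all, where a count of 0 allows up to 3 counts, or 0.0567 to 0.182 CPM in those libraries (counting error only). VTA libraries held 20, 15 and 16 counts in the isolated group and 43, 10 and 318 in the group-housed group, 422 in all. The fitted log2 fold change was 3.25 (SE 0.98, edgeR adjusted p = 0.0185). With 10 counts in the lowest VTA library and 10 in the highest BLA library, this size is poorly fixed: it was 2.31 without group-housed VTA library 3 and 5.85 without group-housed BLA library 3, and limma voom did not call it (adjusted p = 0.0694).

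**Figure D2:**
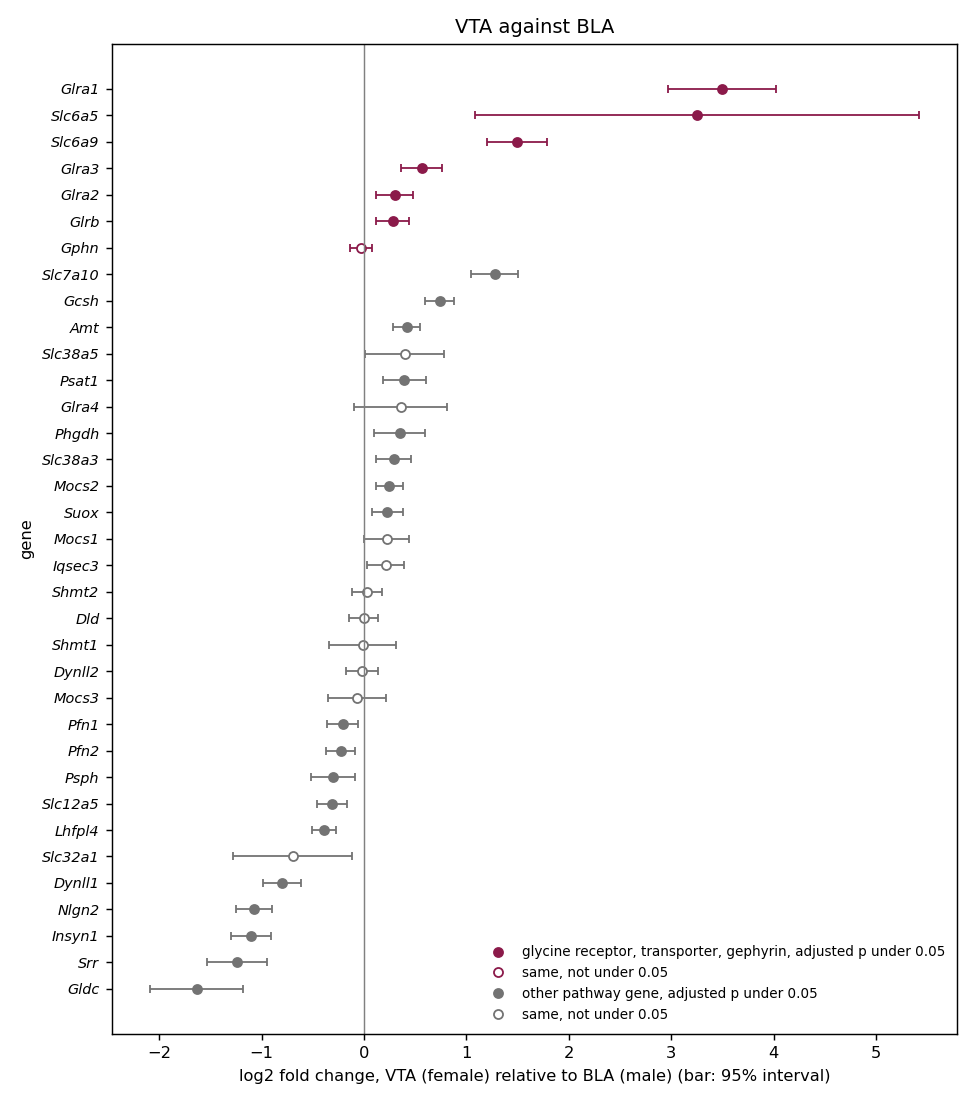
Log2 fold change of VTA (female) over BLA (male) for the 7 glycine genes (top) and other genes of glycine handling and gephyrin partnership; bars are 95% intervals and filled points passed an adjusted p under 0.05. The whole bars of Glra1 (3.49), Slc6a9 (1.49), Slc6a5 (3.25) and Slc7a10 (1.28) lie above 1, Slc6a5 has the longest bar, and Gphn sits at -0.03.

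The mix of alpha subunit transcripts therefore differed between regions. As a share of the 3 alpha genes per kilobase of exon, Glra1 made up 1.94% to 4.54% in the 6 BLA libraries and 14.2% to 29.2% in the 6 VTA libraries. Glra2 made up 62.9% to 72.5% in BLA and 45% to 59.4% in VTA, and Glra3 made up 24.6% to 32.5% in BLA and 25% to 29.2% in VTA. Per kilobase, Glra2 was thus the leading alpha transcript in every library, and its share was lower in VTA although its own level was called higher there. This lead depends on dividing by length. In mean CPM Glra3 lay above Glra2, at 48.2 against 38.4 in BLA and 71.1 against 47.7 in VTA. With the length of the longest coding transcript of each gene in place of all annotated exons, the Glra1 share was 2.03% to 4.71% in BLA and 14.9% to 29.8% in VTA. By that length the Glra2 share was 55% to 65.5% in BLA and 38.8% to 52.3% in VTA. The Glra3 share was 31.5% to 40.3% in BLA and 31.2% to 35.5% in VTA.

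The beta subunit stood in a different ratio to these genes. Glrb per kilobase was 2.55 to 3.18 times the alpha sum in BLA libraries and 1.89 to 2.42 times in VTA libraries, where the alpha sum itself was 15.9 to 20.5 CPM per kb in BLA and 25.2 to 33.9 CPM per kb in VTA. Glrb was 1.75 to 2.19 times Gphn in BLA and 2.18 to 3.01 times Gphn in VTA. These ratios come from the values tested above and are given without a test of their own.

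**Figure D3:**
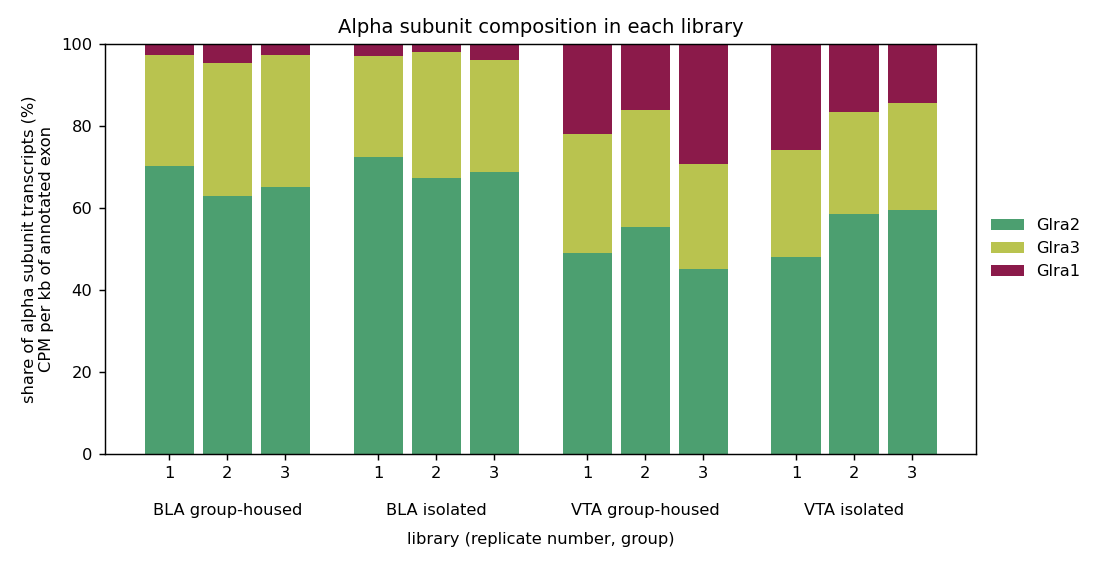
Share of Glra2, Glra3 and Glra1 in the summed alpha subunit transcripts (vertical axis, percent of CPM per kb of annotated exon) in each of the 12 libraries, by group. Glra1 (top segment) is at most 4.54% in BLA libraries and at least 14.2% in VTA libraries, while Glra3 stays between 24.6% and 32.5%.

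Other genes of glycine handling and gephyrin partnership, a list of 29, went both ways between regions. All 29 were tested, 8 were called higher in VTA and 11 lower, where 24.1% and 23.7% of all genes were, and their median log2 fold change was -0.01. Higher in VTA were Slc7a10, a carrier of glycine, serine and other small amino acids (log2 fold change 1.28, SE 0.11), the glycine cleavage genes Gcsh (0.74, SE 0.07) and Amt (0.42, SE 0.06), and Mocs2, an enzyme of molybdenum cofactor synthesis, a pathway in which gephyrin also acts (0.25, SE 0.06). Among those lower were some genes whose products work with gephyrin or at inhibitory synapses: Nlgn2, an adhesion protein of these synapses (-1.08, SE 0.08), Insyn1 (-1.10, SE 0.09) and the dynein light chain Dynll1 (-0.80, SE 0.09). Not all genes of this kind were lower: Dynll2 (-0.02, SE 0.07) and Iqsec3 (0.21, SE 0.09) were not called. Gldc, the glycine-degrading subunit of the cleavage system, lay at 28.8 to 38.7 CPM in BLA and at 7.03 to 20.8 CPM in VTA, lower while its partners Gcsh and Amt were higher and Dld, the remaining subunit, was at -0.0027 (edgeR adjusted p = 0.978). It was singled out after its values were seen (log2 fold change -1.63, SE 0.20). Slc32a1, the vesicular carrier that loads both GABA and glycine, missed the threshold at -0.70 (SE 0.26, edgeR adjusted p = 0.0509).

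Patterns across the 12 libraries were compared by Pearson's r of log2 CPM, as a description, since all libraries of a region share tissue and sex. Among 12150 candidate genes, Slc6a9 was most like Capn2 (r = 0.997), Amotl2 (0.993) and Lpin1 (0.991), and Glra1 was most like Cachd1 (0.988), Msi2 (0.988) and Kndc1 (0.986). Glrb was most like Tex2 (0.986), Glra3 like Psmf1 (0.965), Glra2 like Ahcy (0.962) and Gphn like Narf (0.937).

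The second question was whether early isolation changed these genes in male BLA. None of the 6 genes tested was called (edgeR, 0 of 6, with 0 at an unadjusted p under 0.05, and 0 by DESeq2 and by limma voom), and in all 6 the groups overlapped. The same test called 0% of 22109 genes, 1.99% had an unadjusted p under 0.05, DESeq2 called 6 genes and limma voom 0, and groups did not overlap for 7.08% (4.23% higher and 2.85% lower). Of the 6 genes 1 had a log2 fold change above 0, against 50.8% of all genes. Values of the glycine genes in this and the next paragraphs are CPM scaled among the 6 libraries of the region, as in the test. They differ from those given above by a factor that varies between libraries. Marker levels stay scaled over the 12 libraries.

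Glra3 had the smallest p of the 6 in BLA. Isolated libraries 1, 2 and 3 lay at 31.03, 46.4 and 36.4 CPM and group-housed libraries at 43.2, 42.6 and 48.1 CPM, so isolated library 2 reached into the group-housed range. The log2 fold change was -0.23 (SE 0.14, 95% interval -0.54 to 0.07). It was -0.11 without isolated library 1 and -0.41 without isolated library 2. Slc6a9 lay at 21.5, 15.4 and 16.2 CPM in isolated and 23.8, 19.4 and 17.96 CPM in group-housed BLA, a log2 fold change of -0.20 (95% interval -0.54 to 0.13). Glra1 was low in both groups, at 0.77 to 1.30 CPM isolated and 1.04 to 1.56 CPM group-housed, and its interval was wide (-1.001 to 0.374).

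Glrb, Gphn and Glra2 had the narrowest intervals of the 6 genes in BLA. Glrb lay at 185.1, 207.7 and 195.2 CPM in isolated and 206.4, 210.6 and 205.4 CPM in group-housed libraries (log2 fold change -0.08, 95% interval -0.28 to 0.12). Gphn lay at 85.2, 80.9 and 82.3 CPM against 80.9, 77.3 and 77.1 CPM (0.08, 95% interval -0.11 to 0.27), and Glra2 at 31.2, 34.8 and 31.3 CPM against 38.5, 28.2 and 33.4 CPM (-0.04, 95% interval -0.31 to 0.22). Of the 3 libraries rich in ribosomal RNA reads, 2 are group-housed. With the 3 left out the Slc6a9 value was 0.033, in a fit with a single group-housed library. Cortical glutamatergic markers were lower in isolated BLA in 10 of 10 cases and striatal markers higher in 10 of 10, none of them called. The striatal markers summed to 3217 CPM in isolated library 1 and to 885.7 to 2172 CPM in the other BLA libraries. The part of both marker lists in the values of the glycine genes was not tested. Slc6a5, with 18 counts over the 6 libraries, did not enter this test.

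In female VTA the test called 0 of the 7 genes (edgeR, and also 0 by DESeq2 and limma voom), with 2 at an unadjusted p under 0.05, Glrb and Glra2. Over all 24081 genes it called 0.00415%, a single gene, 18.3% had an unadjusted p under 0.05, and DESeq2 called 485 genes and limma voom 0. Groups did not overlap for 3 of the 7 genes, each higher in isolation, where 26.1% of all genes did not overlap and 12.6% did so on the higher side. A log2 fold change above 0 was found for 4 of 7 genes, against 49.8% of all genes.

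Glrb gave the highest single library. Isolated libraries 1, 2 and 3 lay at 431.7, 337.8 and 345.8 CPM and group-housed libraries at 294.9, 281.3 and 322.7 CPM. Each isolated library was above each group-housed one, with library 1 far above the rest, and the log2 fold change was 0.31 (SE 0.11, 95% interval 0.06 to 0.56, edgeR adjusted p = 0.241). It was 0.19 without isolated library 1 and 0.17 without isolated libraries 1 and 3, which leaves a single isolated library.

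Glra2 lay at 57.8, 58.3 and 67.6 CPM in isolated and 46.4, 55.7 and 47.9 CPM in group-housed VTA. The groups did not overlap, though group-housed library 2 came close to the lowest isolated library, and the log2 fold change was 0.29 (SE 0.10, 95% interval 0.07 to 0.52, edgeR adjusted p = 0.238). Gphn lay at 115.6, 113.3 and 110.9 CPM against 101.7, 103.9 and 102.8 CPM. Its libraries were closely grouped, and the log2 fold change was 0.14 (SE 0.06, 95% interval -0.00 to 0.28, edgeR adjusted p = 0.281). With a single fit and scaling of all 12 libraries, the log2 fold changes were 0.37 for Glrb, 0.35 for Glra2 and 0.20 for Gphn, none of them called.

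Markers of some other cell types were also higher in isolated VTA, and those of others were not. Cortical glutamatergic markers were higher in isolated VTA in 10 of 10 cases, and choroid plexus markers in 10 of 10 cases. The cortical markers summed to 150.3 to 602.1 CPM, the highest in isolated library 3, against 125.9 to 136.7 CPM in group-housed VTA. Sums in this paragraph are scaled over the 12 libraries, unlike the gene values above. Myelin markers were higher in 10 of 10 cases, at 9766 to 13270 CPM against 6699 to 11060 CPM, with isolated library 1, the highest in Glrb, also the highest here. Microglia markers were higher in 10 of 10 cases, striatal markers in 8 of 10 (median log2 fold change 0.87), and astrocyte markers in 8 of 10, summing to 4460 to 4870 CPM against 3878 to 4169 CPM. Inhibitory neuron markers, in contrast, were higher in 3 cases and lower in 7, and dopamine neuron markers higher in 5 and lower in 5. The 5 serotonin neuron markers that were tested were all lower, as were the 2 tested positional genes of the hindbrain and its border with the midbrain. Group-housed libraries were uneven here. Tph2 stood at 0.4585, 6.063 and 92.14 CPM in group-housed libraries 1, 2 and 3, against 0.8207 to 1.038 CPM in isolated ones. None of these markers passed the test, and the part of these markers in the values of Glrb, Glra2 and Gphn was not tested.

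The remaining receptor genes showed no shift beyond their spread in VTA. Glra3 lay at 92.4, 72.9 and 87.4 CPM in isolated and 80.9, 83.9 and 80.2 CPM in group-housed VTA (log2 fold change 0.04, 95% interval -0.17 to 0.26). Glra1 lay at 23.9, 12.7 and 12.4 CPM against 15.97, 12.4 and 23.8 CPM (-0.10, 95% interval -0.93 to 0.73). Each group held a library near 24 CPM, so the direction depended on which library was left out, from -0.47 to 0.19.

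**Figure D4:**
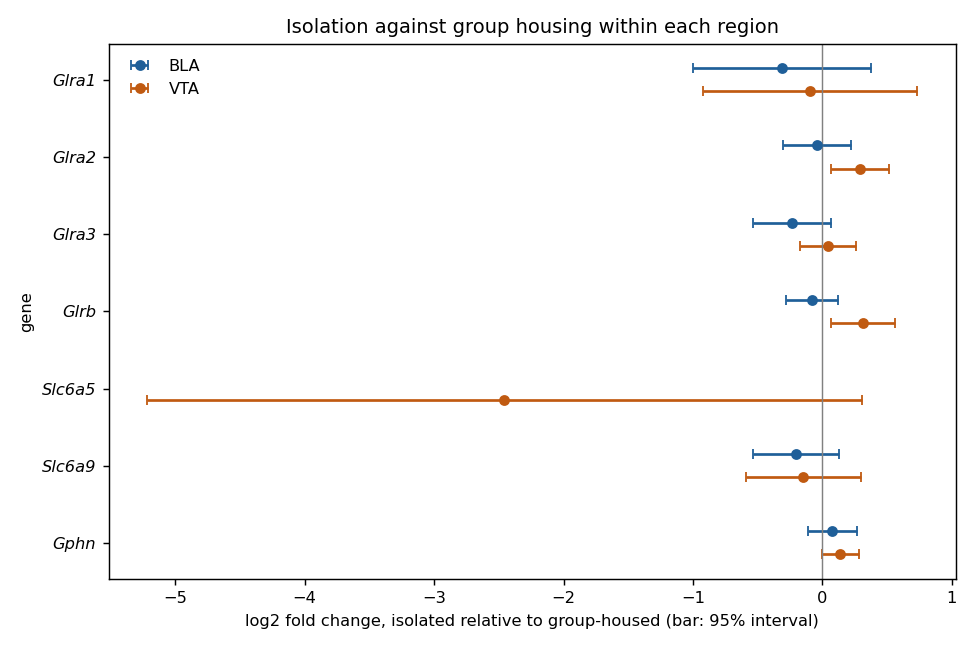
Log2 fold change of isolated over group-housed mice for each gene in BLA (blue, males) and VTA (orange, females); bars are 95% intervals, and Slc6a5 was not tested in BLA. The intervals of Glra2 and Glrb in VTA lie above 0, without passing the adjustment over all genes, and those of the 6 genes tested in BLA cross 0.

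For both transporters the highest VTA library was group-housed library 3. Slc6a9 lay at 80.8, 73.4 and 53.97 CPM in isolated and 67.6, 67.6 and 95.2 CPM in group-housed VTA, and its groups overlapped (log2 fold change -0.15, 95% interval -0.59 to 0.30). Slc6a5 lay at 0.51, 0.22 and 0.30 CPM in isolated and 0.76, 0.20 and 4.49 CPM in group-housed VTA. Its fitted log2 fold change of -2.46 (SE 1.13, edgeR adjusted p = 0.305) depended on group-housed library 3, and without that library it was -0.54.

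The same library had the highest levels of several serotonin neuron markers. In CPM scaled over the 12 libraries, Tph2 stood at 92.14 and the serotonin transporter gene Slc6a4 at 44.0 in group-housed VTA library 3. The other 5 VTA libraries held at most 6.06 and 1.97 CPM, both of those in group-housed library 2. Fev and Htr1a were also highest in library 3, at 0.321 and 29.9 CPM, whereas Gata3 was highest in isolated library 1 (5.39 CPM, against 4.75 in library 3) and Lmx1b in isolated library 2 (10.6 CPM, against 9.66). Summed over 6 serotonin markers the range was 25.5 to 180.7 CPM in group-housed and 33.02 to 37.8 CPM in isolated VTA. Over 16 positional genes of the hindbrain and its border with the midbrain, the sum was 12.8 CPM in that library and 2.97 to 6.32 CPM in the others, almost all of it En2 (11.8 CPM). Lhx4 (0.666 CPM) and Hoxa2 (0.214 CPM) were highest there too, against at most 0.348 and 0.0746 CPM elsewhere. Hoxa4 was counted there alone, but at 0.0238 CPM, where 3 counts in that library make 0.0357 CPM. Hoxa5, Hoxb5, Hoxb8 and Hoxd4 had 0 counts in all 12 libraries, and Hoxb2, Hoxb3, Hoxb4 and Hoxc4 had 0 counts in that library. Group-housed library 3 also had the highest sum of dopamine neuron markers, 1342 CPM against 626.4 to 1083 CPM in the other VTA libraries. Th, Slc6a3, Slc18a2, Ddc and En1 were highest there, whereas Pitx3, Nr4a2, Foxa1, Foxa2 and Lmx1b were highest in other VTA libraries. The part of neighbouring tissue in the Slc6a5 value was not tested.

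**Figure D5:**
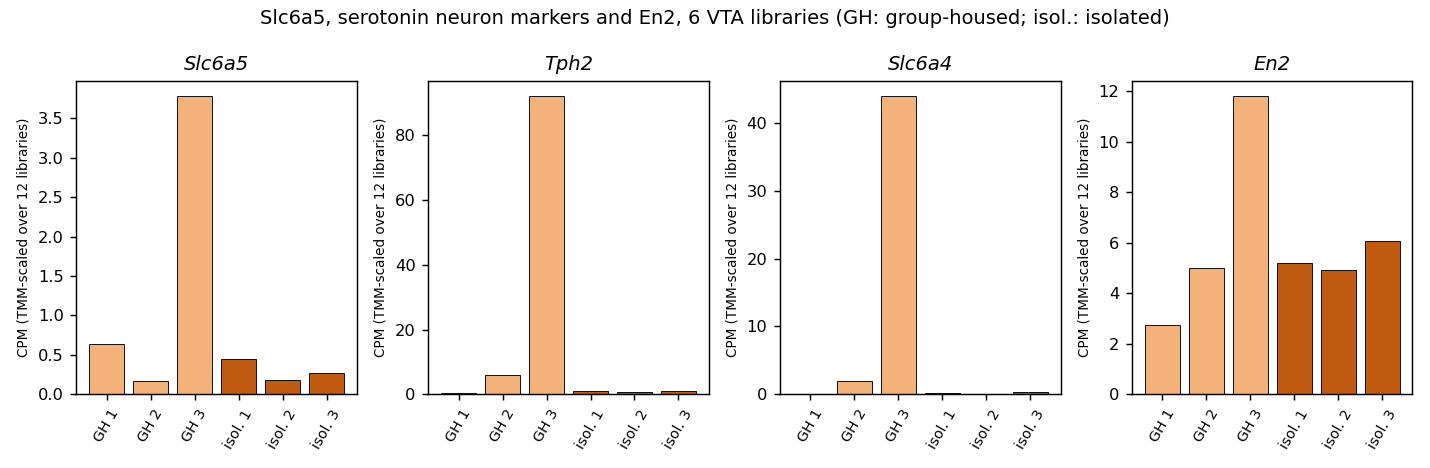
Level of Slc6a5, the serotonin neuron markers Tph2 and Slc6a4, and the positional gene En2 (vertical axes, CPM scaled over the 12 libraries) in the 6 VTA libraries; bars are single libraries. Group-housed library 3 is the highest bar in each panel, at 3.78, 92.14, 44.0 and 11.8 CPM. Not all genes of these marker lists were highest there. Gata3 and Lmx1b, which are not drawn, were highest in isolated libraries, and Hoxb2, Hoxb3, Hoxb4 and Hoxc4 had 0 counts in group-housed library 3.

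The other pathway genes were not called in either isolation comparison. In BLA, 0 of 29 were called (edgeR, with 0 at an unadjusted p under 0.05), 13 were higher and 16 lower, and the median log2 fold change was -0.02. The smallest p-values belonged to Shmt2, a glycine-forming enzyme (-0.19, SE 0.11), and the actin regulator Pfn1 (-0.12, SE 0.09) among those lower, and to Slc7a10 (0.21, SE 0.18) and Gcsh (0.13, SE 0.11) among those higher. In VTA, 0 of 29 were called, 6 had an unadjusted p under 0.05, 23 were higher and 6 lower, and the median was 0.16, against -0.0013 over all genes. Groups did not overlap for 7 genes, all higher in isolation. Over all genes 18.3% had an unadjusted p under 0.05, 49.8% were above 0, and groups did not overlap on the higher side for 12.6% and in either direction for 26.1%. Dynll1 (0.44, SE 0.11) and Dld, a subunit of the glycine cleavage system (0.25, SE 0.08), had the smallest p-values, and among those lower Lhfpl4 (-0.08, SE 0.07) and Slc32a1 (-0.22, SE 0.31) did.

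The last comparison asked whether the response to isolation differed between male BLA and female VTA. The difference of responses, BLA minus VTA, was called for 0 of 7 genes and for 0% of 25009 genes (edgeR), with 2 of the 7 and 14.9% of all genes at an unadjusted p under 0.05. A difference above 0 was found for 1 of 7 genes, against 44.7% of all genes. DESeq2 called 138 genes, none of the 7, and limma voom 0. Glrb had a difference of -0.46 (SE 0.15, 95% interval -0.77 to -0.14, edgeR adjusted p = 0.303) and Glra2 -0.40 (SE 0.17, 95% interval -0.75 to -0.04, edgeR adjusted p = 0.312), with isolated libraries on average lower in BLA and higher in VTA. The median over all genes was -0.06 on the same scale. For Gphn the difference was -0.12 (95% interval -0.34 to 0.10) and for Glra3 -0.34 (95% interval -0.74 to 0.06). Glra1 (-0.28) and Slc6a9 (-0.12) had intervals across 0, and that of Slc6a5 (1.86) ran from -2.95 to 6.68.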

How the data were processed

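Total RNA was isolated with Trizol, depleted of ribosomal RNA and made into stranded libraries, per the labels' protocols. The values deposited by the authors are raw gene counts. HTSeq, TopHat2 and cutadapt, without versions, and the build mm10 are named per the submitters' processing notes. The counting's annotation and strand setting were not given in the sources used here. Members were read from the table of the whole series, which matched the per-sample tables for all 7 genes. The members and lists were chosen with earlier results of these data known. Of 54429 entries, 98.8% matched names in GENCODE M21.

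The low-count filter was filterByExpr with a minimum count of 10 and a minimum total of 15. TMM scaling and all main tests came from edgeR 4.0.16 under R 4.3.3 (robust quasi-likelihood F test, Benjamini-Hochberg over all genes tested, threshold 0.05). The isolation fits used the 6 libraries of a region; VTA against BLA and the difference of responses used a group-means model of all 12. SE is the log2 fold change over the root of F. Per-kilobase levels divide by the union of annotated exons. No library was a copy of another of its group: chi-square over degrees of freedom was at least 20.8 in the 12 pairs. On simulated counts the 4 tests, in the order of design (BLA, VTA, VTA against BLA, difference), recovered 78%, 60%, 87% and 48% of genes changed 2-fold on 22109, 24081, 25009 and 25009 genes, and false calls were 11.1%, 9.25%, 5.13% and 8.33% of calls. Named pathway genes are those with the smallest p: up to 4 per direction between regions and 2 per direction within each; the likeness rule took 3 genes of at least 5 CPM per member of at least 1 CPM; Gldc was added after its values were seen, and a gene that the pathway rule names is not reported here. Alternatives were DESeq2 1.42.0, limma 3.58.1 voom, RLE factors, other filters, the ribosomal loci dropped, a replicate block, other library sets and leaving out each library; fits without libraries rich in ribosomal RNA or choroid plexus reads were chosen after seeing the data.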

Additional observations from a re-analysis of the deposited data

How the results depend on the processing

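Slc6a5 and, in BLA, Glra1 are limited by depth, at 0 to 318 and 30 to 69 counts per library. The number of glycine genes called was 0 in each isolation comparison and in the difference of responses under every alternative run. Between VTA and BLA it was 6, and it was 5 with limma voom, 3 with group-housed libraries alone and 2 without the 5 libraries rich in ribosomal RNA or choroid plexus reads; leaving out single libraries kept 6. Of 147 values of single genes in that comparison, 139 kept direction and call and 8 lost the call. Genes called in BLA (0) came to 6 with DESeq2, 8 without the filter and 0 to 4 without single libraries. In VTA (1) they came to 485 with DESeq2, 17 without the filter, 0 with limma voom, 0 with the replicate block and 0 to 1200 without single libraries, the most without isolated library 2. For the difference (0) they came to 138 with DESeq2, 1 without the filter, 1 with the replicate block and 0 to 487 without single libraries, the most without VTA isolated library 2. The cause was not tested. Deviations of same-numbered isolated and group-housed libraries correlated at 0.172, -0.025 and 0.003 in BLA and at -0.058, -0.027 and -0.020 in VTA. Pairs with unlike numbers ran from -0.105 to 0.114 in BLA and from -0.0645 to 0.0983 in VTA. With 3 libraries per group, these values cannot show whether replicate numbers pair the libraries. The replicate block changed the call of none of the 7 genes. The sign turned for Slc6a9 in BLA (0.033) without the ribosomal RNA-rich libraries, which leaves a single group-housed library. It also turned for Glra3 in VTA (-0.16) without the choroid-rich ones, which leaves a single isolated library. Leaving out single libraries spanned 0 for Glra2 in BLA (-0.15 to 0.072), for Glra1 (-0.47 to 0.19), Glra3 (-0.023 to 0.14) and Slc6a9 (-0.27 to 0.029) in VTA, and for Glra1 (-0.57 to 0.12) and Slc6a9 (-0.30 to 0.020) in the difference; these values were not called in any fit.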

Other observations

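Glra4, a further alpha subunit gene, lay between 0.700 and 0.939 CPM in the BLA libraries and between 0.726 and 1.33 CPM in the VTA libraries. Its log2 fold change of VTA over BLA was 0.36 (SE 0.21, edgeR adjusted p = 0.186), and no isolation comparison called it.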
